A study of Mus musculus with 6 samples.

Results

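The 4 genes of the atypical chemokine receptor family, Ackr1, Ackr2, Ackr3 and Ackr4, and the related receptor gene Ccrl2 were analysed in isolated liver sinusoidal endothelial cells (LSECs), the fenestrated endothelium that lines the blood channels of the liver. They were taken by gene symbol, and all 5 were found, each with 1 value per array, among 24479 genes measured on 6 arrays. The gene set was chosen by its difference between the groups, with Ackr1 as its leading gene. The contrast of these 5 genes is therefore a description, and counts of them at a p threshold are not read as a test. One group were mice with a constitutive knockout of Lyve1, the gene of a hyaluronan receptor of lymphatic endothelium and LSECs (Lyve-1-KO, strain B6.129S1-Lyve1tm1Lhua/J), and the other C57BL/6J mice (Ctrl), described in the study's methods as littermates or purchased mice. Each of the 3 arrays per group held RNA of LSECs pooled from 3 mice, so that no value belongs to a single animal. The cells were obtained by collagenase perfusion, separation on a density gradient and a magnetic sort for CD146. Age and sex of the pooled mice are not given in the labels.

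Conventional chemokine receptors signal through G proteins and make leukocytes migrate along a gradient of their ligand. Atypical chemokine receptors bind chemokines without this response: they take them up and degrade them, carry them across a cell or hold them at its surface, and so shape where and how long a chemokine is present. Ackr1, the Duffy antigen receptor, is known from red blood cells and from the endothelium of venules, where it carries inflammatory chemokines to the luminal side. Ackr2 is a scavenger of inflammatory CC chemokines known from lymphatic endothelium, Ackr3 removes Cxcl12, and Ackr4 removes the homeostatic chemokines Ccl19, Ccl21 and Ccl25. Ccrl2 binds chemerin, which it presents to other cells without taking it up, and is known to be inducible in endothelial and myeloid cells.

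Values are quantile-normalized log2 expression levels, on which a difference of 1 is a doubling; on every array they ran between 2.92 and 13.87 with a median of 5.04. Any pair of arrays correlated at 0.9912 to 0.9963, and the number of arrays limits the precision. Log2 fold changes (arrays labelled Lyve-1-KO minus Ctrl) and their standard errors (SE) came from a limma fit over all genes, and adjusted p-values of other genes are limma's after Benjamini-Hochberg adjustment over all 24479. The Lyve1 signal did not separate the groups as the labels would have it. It was 12.85, 12.88 and 12.83 on the arrays labelled Lyve-1-KO, against 12.78, 12.69 and 12.84 on the Ctrl arrays (log2 fold change 0.08, SE 0.06, adjusted p = 0.663 by limma), and where its probes lie relative to the deleted part was not analysed here. The study examined the knockout by protein assays in liver tissue, which are not part of these data. All directions rest on the labels. The 15 LSEC markers averaged 12.54 ± 0.01 on the arrays labelled Lyve-1-KO and 12.57 ± 0.01 on the Ctrl arrays (SD, n = 3 each). Markers of other liver cells were also well above the array median in both groups, among them the hepatocyte gene Alb with means of 11.87 and 11.85, so the purity of the sort cannot be read from these levels.

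Ackr1 stood highest above Ctrl of the 5 receptor genes. Its log2 level was 9.66, 9.72 and 9.43 on the arrays labelled Lyve-1-KO, against 8.51, 8.82 and 8.57 on the Ctrl arrays. Each array of one group lay above each of the other, and 0.61 separated the lowest array labelled Lyve-1-KO and the highest Ctrl array. The means were 9.60 ± 0.15 and 8.63 ± 0.16 (SD, n = 3 each), a log2 fold change of 0.97 (SE 0.11) or 1.96-fold, which ranked 54 of 24479 genes by size. Ackr1 varied more between arrays of a group than most genes, its pooled SD lying at the 74.3 percentile of all genes. Leaving out single arrays gave log2 fold changes of 0.91, without Lyve-1-KO replicate 2 or without Ctrl replicate 1, to 1.06, without Ctrl replicate 2.

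Of the other 4 genes, Ccrl2 was also higher on the arrays labelled Lyve-1-KO. It had 9.86, 9.86 and 10.14 there, against 9.56, 9.53 and 9.54 on the Ctrl arrays, again without overlap and with a gap of 0.29. The Ctrl arrays lay within hundredths of each other, and the spread of the means, 9.95 ± 0.16 and 9.54 ± 0.02 (SD, n = 3 each), came from Lyve-1-KO replicate 3. The log2 fold change was 0.41 (SE 0.09), or 1.33-fold, and was 0.31 without that replicate.

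The promoter of Ackr1 and a stretch upstream of Ccrl2 are shown because these are the receptor genes whose groups did not overlap. Sequences are from RefSeq (GRCm38.p6) in the direction of the gene, with position 1 at the annotated start and capitals marking matches to the motifs named after them; the motifs were picked after the sequences had been read.
Ackr1, chr1:173333504-173333753, minus strand, positions -250 to -1: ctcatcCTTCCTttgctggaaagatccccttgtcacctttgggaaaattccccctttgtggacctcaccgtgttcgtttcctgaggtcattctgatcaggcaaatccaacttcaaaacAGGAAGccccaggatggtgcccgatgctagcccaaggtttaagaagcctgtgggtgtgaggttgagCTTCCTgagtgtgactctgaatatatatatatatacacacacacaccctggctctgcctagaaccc
Ackr1, chr1:173333462-173333491, minus strand, positions 13 to 42: tagccctgggcaCTTATCttggagccacag
Ccrl2, chr9:111057559-111057618, minus strand, positions -100 to -41: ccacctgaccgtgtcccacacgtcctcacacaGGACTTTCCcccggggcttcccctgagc

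The Ackr1 window, 250 bases before and 50 after the start, held AGGAAG, the core letters of ETS factor motifs, at 3 places, positions -244 to -239 and -66 to -61 on the opposite strand and -132 to -127 on the strand of the gene. It held GATAAG, the letters of GATA factor motifs, once, at positions 25 to 30 on the opposite strand, where it reads CTTATC. The Ccrl2 stretch held GGNNTTTCC, a short form of the NF-kB motif, at positions -68 to -60 on the strand of the gene. Matches were not particular to these genes. AGGAAG was also found at positions -5 to 1 of the same Ccrl2 window and at -55 to -50 of Ackr2, and GGNNTTTCC at -230 to -222 of Ackr4. On both strands of 32851 promoters of this length, AGGAAG was found in 35.4%, GATAAG in 7.44% and GGNNTTTCC in 5.82%. A match of letters is a description and not a binding site. Other forms of these motifs were not searched. A window without a match may therefore still hold another form. That of Ackr1 has no match to GGNNTTTCC, but its printed sequence holds ggaaaattcc, the letters of a longer NF-kB form. How many promoters hold that longer form was not counted. Ccrl2 has 3 annotated starts, and the positions above refer to the most upstream of them. Counted from the other starts, GATAAG was found on the opposite strand at positions 30 to 35 and at 4 to 9, the same bases in both cases.

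The scavenger of Cxcl12, Ackr3, was lower on the arrays labelled Lyve-1-KO by its mean, but its groups overlapped. It had 8.04, 8.27 and 8.36 on these arrays, against 8.70, 8.82 and 8.29 on the Ctrl arrays. Ctrl replicate 3 fell inside the range of the other group, while the remaining Ctrl arrays lay above all arrays labelled Lyve-1-KO. The means of 8.22 ± 0.16 and 8.61 ± 0.28 (SD, n = 3 each) gave a log2 fold change of -0.38 (SE 0.15), which was -0.54 without Ctrl replicate 3 and -0.27 without Ctrl replicate 2. Ackr3 was the most variable of the 5 genes between arrays of a group, at the 89.1 percentile of pooled SD over all genes.

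The remaining scavengers differed less. Ackr2 had 10.56, 10.59 and 10.66 on the arrays labelled Lyve-1-KO, against 10.78, 10.78 and 10.60 on the Ctrl arrays (log2 fold change -0.12, SE 0.07). Here too, Ctrl replicate 3 was the array that lay among those labelled Lyve-1-KO. Ackr4 had 9.87, 9.87 and 9.89 on the arrays labelled Lyve-1-KO, against 10.05, 9.86 and 9.82 on the Ctrl arrays (log2 fold change -0.03, SE 0.08). The sign of the Ackr4 difference depended on Ctrl replicate 1, without which it was 0.04, and all 3 arrays labelled Lyve-1-KO lay within the Ctrl range.

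**Figure D1:**
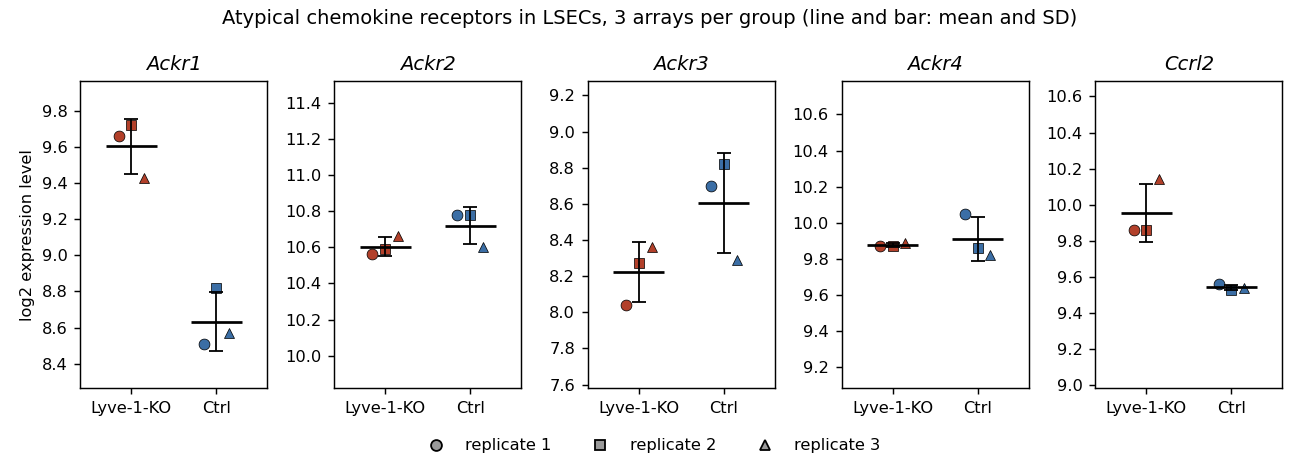
Log2 expression levels of Ackr1, Ackr2, Ackr3, Ackr4 and Ccrl2 on the 3 arrays labelled Lyve-1-KO (left in each panel) and the 3 Ctrl arrays (right); each panel spans the same range of log2 units, marker shapes give the replicate number, lines the group mean and bars the SD. The groups are apart for Ackr1 (means 9.60 and 8.63) and Ccrl2 (9.95 and 9.54) and overlap for Ackr2, Ackr3 and Ackr4.

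Counted over the 5 receptor genes, 0 passed the adjusted threshold of 0.05, as did 0.00409% of all genes (1 gene). At an unadjusted p under 0.05 there were 3, Ackr1 and Ccrl2 higher and Ackr3 lower, beside 11.2% of all genes (2741 of 24479, with 1436 higher and 1305 lower). The groups did not overlap for 2 of 5, beside 17.4% of all genes. The genes were selected on this contrast, so nothing is read from these counts. The median log2 fold change over all genes was -0.00, and over the 5 it was -0.03, with 2 above 0 and 3 below. In sorted cells measured in bulk, fewer cells that carry a transcript and less of that transcript per cell cannot be told apart.

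**Figure D2:**
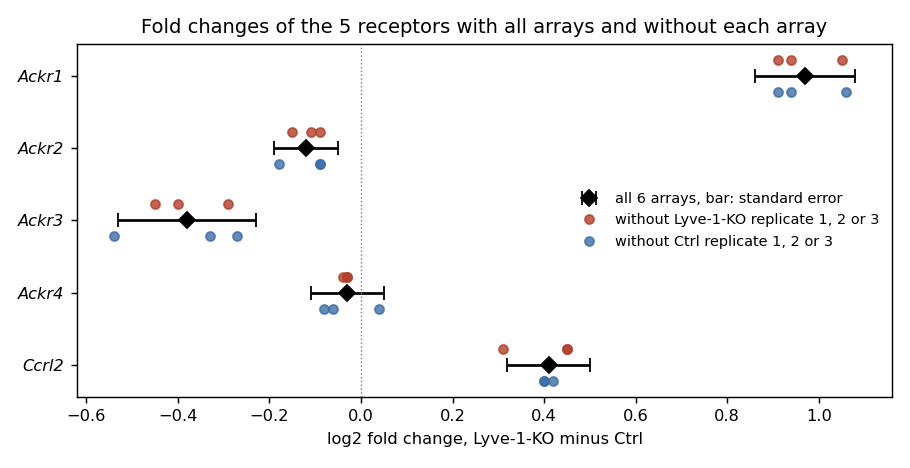
Log2 fold change (x axis, Lyve-1-KO minus Ctrl) of each of the 5 receptor genes with all 6 arrays (diamonds, bars the standard error) and without 1 array (red, an array labelled Lyve-1-KO left out; blue, a Ctrl array left out). Ackr1 stays between 0.91 and 1.06 and Ccrl2 between 0.31 and 0.45, whereas Ackr4 lies on both sides of 0.

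Within the set, levels moved together in part. Over the 6 arrays the Pearson correlation was 0.975 for Ackr2 with Ackr3, both of them low on the arrays labelled Lyve-1-KO and on Ctrl replicate 3. It was 0.798 for Ackr1 with Ccrl2, which both separate the groups, and -0.666 for Ackr1 with Ackr3. When each group's mean was taken off first, Ackr1 and Ccrl2 went opposite ways (r = -0.725): Lyve-1-KO replicate 3 was the lowest of its group for Ackr1 and the highest for Ccrl2. These values describe 6 arrays that share 1 normalization and fall into 2 groups, and they carry no test.

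All 5 genes lie on chromosomes 1 and 9 of the mouse reference (GRCm38.p6). Ackr1 spans 173331886 to 173333503 of chromosome 1 on the minus strand, and Ackr3 spans 90203980 to 90215724 of the same chromosome on the plus strand. On chromosome 9 lie Ackr4 (104097682 to 104126643, minus strand), Ccrl2 (111054834 to 111057518, minus strand) and Ackr2 (121898355 to 121911075, plus strand). The annotation places 2 of the 5 inside another gene. Ackr1 shares 1612 of its 1618 bases with the span of Cadm3, a cell adhesion molecule gene on the same strand, and all 28962 bases of Ackr4 lie within the span of Acad11, a gene of fatty acid oxidation. Which transcripts the probes of these pairs could share was not analysed here, so the partners' values are given with them. Cadm3 had 7.51, 7.68 and 7.20 on the arrays labelled Lyve-1-KO, against 7.79, 7.94 and 7.57 on the Ctrl arrays (log2 fold change -0.30, SE 0.15, adjusted p = 0.493 by limma), the direction opposite to that of Ackr1. Acad11 had 7.94, 8.01 and 7.93 on the arrays labelled Lyve-1-KO, against 8.14, 8.27 and 8.14 on the Ctrl arrays (log2 fold change -0.22, SE 0.07, adjusted p = 0.32 by limma).

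The genes around Ackr1 were examined because one side of its neighbourhood holds the Ifi200 family, interferon-inducible genes that include the DNA sensor Aim2. Of the 10 nearest measured genes on each side, 7 of 20 (35%) were at an unadjusted p under 0.05 and all 7 were higher on the arrays labelled Lyve-1-KO. Over all genes, 5.87% were higher at that threshold. None of the 20 passed the adjusted threshold. On the side of higher coordinates it was 6 of 10 genes, with a median log2 fold change of 0.43, and on the side of lower coordinates 1 of 10, with a median of -0.04. With 5 genes on each side the count was 3 of 10, and with 20 on each side 11 of 40, of which 10 lay on the side of higher coordinates. The corresponding windows of 20 genes held 2 higher and 2 lower for Ackr2, 2 higher and 1 lower for Ackr3, 1 higher and 1 lower for Ackr4, and 0 higher and 2 lower for Ccrl2.

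Aim2 begins 17.7 kb from Ackr1 and was the closest of the 7. Its log2 level was 6.93, 7.03 and 7.09 on the arrays labelled Lyve-1-KO, against 6.30, 6.51 and 6.55 on the Ctrl arrays (log2 fold change 0.56, SE 0.09, adjusted p = 0.161 by limma). Ifi208, 341.7 kb away, had 7.87, 7.98 and 7.96 on the arrays labelled Lyve-1-KO, against 7.24, 7.35 and 7.32 on the Ctrl arrays (log2 fold change 0.63, SE 0.06, adjusted p = 0.0901 by limma). For both genes the groups were apart. The other family members of the 7 were Ifi213 (log2 fold change 0.72, SE 0.14), Ifi207 (0.53, SE 0.09), Ifi203-ps (0.51, SE 0.07) and Mndal (0.35, SE 0.06), with adjusted p between 0.14 and 0.209. The family did not move as one: Ifi204 had a log2 fold change of 0.21 (SE 0.10), Ifi214 0.17 (SE 0.11) and Ifi209 -0.30 (SE 0.39), all 3 with overlapping groups and named after their values were seen. These genes are closely related in sequence, so probes may be shared between them, and their values are uncertain in that respect. On the side of lower coordinates, the nearest gene Mptx2 had means of 3.92 and 3.87 on the arrays labelled Lyve-1-KO and on the Ctrl arrays, and the olfactory receptor gene Olfr418 had 3.96 and 3.67 (log2 fold change 0.30, SE 0.07, adjusted p = 0.263 by limma); all these values lie below the array median.

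**Figure D3:**
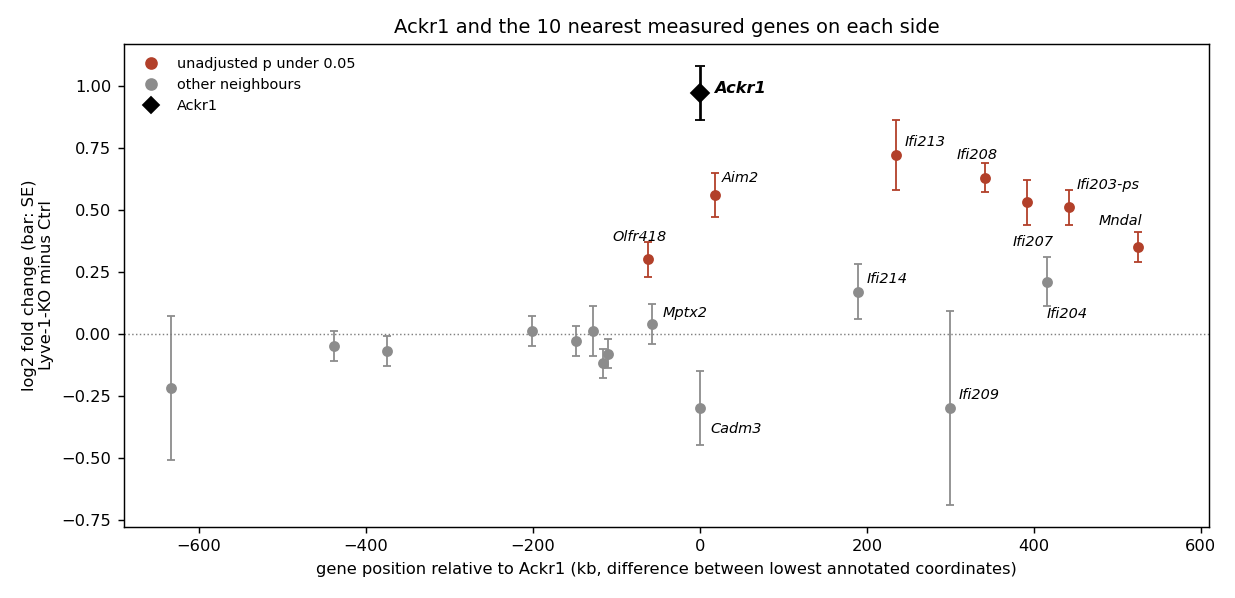
Log2 fold change (y axis, Lyve-1-KO minus Ctrl, bars the standard error) of Ackr1 and its 10 nearest measured genes on each side, by position relative to Ackr1 in kb (x axis). Red points, at an unadjusted p under 0.05, number 6 of 10 on the right and 1 of 10 on the left, and Cadm3, which overlaps Ackr1, lies at -0.30.

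Among 11759 named genes at or above the array median, the 5 whose levels followed Ackr1 most closely over the 6 arrays were Btrc (r = 0.998), a ubiquitin ligase subunit, Ddx5 (0.997), an RNA helicase, Ifi207 (0.988), Oas1b (0.987), of the interferon-inducible oligoadenylate synthetase family, and Ercc6 (0.985), a repair factor. Oas1b had 7.16, 7.15 and 7.08 on the arrays labelled Lyve-1-KO, against 6.37, 6.68 and 6.38 on the Ctrl arrays (log2 fold change 0.65, SE 0.10, adjusted p = 0.148 by limma). The others differed less than Ackr1, by 0.14 for Ercc6 to 0.53 for Ifi207 on the log2 scale. An r of 0.95 or more was reached by 61 genes. Taking the group means off first gave a different leading set, Cisd1 (r = 0.995), Atp5mpl (0.994), Fcho2 (0.992), Dcun1d4 (0.992) and Apoa5 (0.989), and 73 genes at 0.95 or more. With 6 arrays in 2 groups these correlations are descriptions.

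Of 25 listed genes of ligands that these receptors bind, most of them chemokines, 22 were measured and 0 passed the adjusted threshold. At an unadjusted p under 0.05, 3 were higher and 3 were lower, 6 of 22 in all, beside 11.2% of all genes. Their median log2 fold change was 0.11, beside -0.00 for all genes, with 15 above 0 and 7 below.

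For the 9 ligands of Ackr1 the median was 0.24, and 3 were at an unadjusted p under 0.05, 2 of them higher and 1 lower, beside 11.2% of all genes. With the replicate number as a block these were 6 of 9, beside 2757 of all 24479 genes. Cxcl1, a neutrophil attractant, had 8.17, 8.38 and 8.61 on the arrays labelled Lyve-1-KO, against 7.61, 8.03 and 7.71 on the Ctrl arrays, without overlap (log2 fold change 0.60, SE 0.15, adjusted p = 0.263 by limma). Pf4, a chemokine of platelet granules, went the other way, with 5.15, 5.14 and 5.32 on the arrays labelled Lyve-1-KO, against 5.63, 5.63 and 5.73 on the Ctrl arrays (log2 fold change -0.46, SE 0.07, adjusted p = 0.168 by limma). The eosinophil attractant Ccl11 had a log2 fold change of 0.24 (SE 0.09) and Cxcl5 one of -0.17 (SE 0.07), both at levels below the array median. The list of 6 platelet genes, which holds Pf4, averaged 5.71 ± 0.01 on the arrays labelled Lyve-1-KO and 6.03 ± 0.24 on the Ctrl arrays (SD, n = 3 each; p = 0.1 by an exact two-sided permutation test, the smallest that 3 arrays against 3 allow), with summed levels of 34.2 to 34.3 and 34.5 to 37.0. All 6 were below 0, and their part in the Pf4 difference was not tested.

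For the 10 inflammatory CC chemokines bound by Ackr2, several of which Ackr1 binds as well, the median was 0.22. At an unadjusted p under 0.05 there was 1 (Ccl11), beside 11.2% of all genes. With the replicate block there were 5, beside 2757 of all 24479 genes, and with the methods' test 0, beside 2473. Ccl3 had 10.32, 10.26 and 11.10 on the arrays labelled Lyve-1-KO, against 8.50, 10.18 and 10.33 on the Ctrl arrays (log2 fold change 0.89, SE 0.49, adjusted p = 0.546 by limma). Its range was set by a low Ctrl replicate 1 and a high Lyve-1-KO replicate 3, and the groups overlapped. Ccl2, the main attractant of monocytes, had a log2 fold change of 0.47 (SE 0.23), and Ccl17 one of -0.24 (SE 0.15).

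Ackr3 binds Cxcl12 and Cxcl11, and adrenomedullin (Adm) and Mif have been described as further ligands. Cxcl12, which retains blood stem cells in the bone marrow, had a log2 fold change of 0.16 (SE 0.23, adjusted p = 0.833 by limma), and Cxcl11 one of 0.21 (SE 0.17, adjusted p = 0.686). Adm had 9.27, 9.48 and 9.13 on the arrays labelled Lyve-1-KO, against 9.08, 8.99 and 8.93 on the Ctrl arrays (log2 fold change 0.30, SE 0.10, adjusted p = 0.367 by limma). Mif was lower, with 8.37, 8.37 and 8.54 on the arrays labelled Lyve-1-KO, against 8.74, 8.74 and 8.58 on the Ctrl arrays (log2 fold change -0.26, SE 0.08, adjusted p = 0.335 by limma). In both the groups did not overlap. The signalling receptor of adrenomedullin is built from Calcrl and a Ramp protein. Of these, Calcrl (log2 fold change 0.01, SE 0.06), Ramp2 (-0.07, SE 0.08), Ramp1 (0.20, SE 0.13) and Ramp3 (-0.36, SE 0.20) had 0 of 4 at an unadjusted p under 0.05, beside 11.2% of all genes.

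Of the 6 listed ligands of Ackr4, 3 were measured. Ccl19, which guides dendritic and T cells, had a log2 fold change of -0.36 (SE 0.15, adjusted p = 0.443 by limma) at levels below the array median, Ccl25 had 0.02 (SE 0.12) and Ccl20 had -0.01 (SE 0.16). Rarres2, the gene of the Ccrl2 ligand chemerin, had 7.67, 8.12 and 7.35 on the arrays labelled Lyve-1-KO, against 7.63, 7.71 and 7.71 on the Ctrl arrays (log2 fold change 0.03, SE 0.18). The Ctrl values lay inside the range of the other group, in contrast to those of Ccrl2 itself.

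Gpr182, a receptor of LSECs that has been proposed as a further atypical chemokine receptor, was near the top of the range of the arrays with 12.96, 12.96 and 13.01 on those labelled Lyve-1-KO, against 12.93, 13.02 and 13.00 on the Ctrl arrays (log2 fold change -0.01, SE 0.06, adjusted p = 0.967 by limma). Pitpnm3, proposed as a receptor of Ccl18 in humans, had means of 3.73 and 3.87 (log2 fold change -0.14, adjusted p = 0.43 by limma), below the array median.

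Of the conventional receptors, 19 of 20 were measured, and 0 passed the adjusted threshold. At an unadjusted p under 0.05 in limma there were also 0, beside 11.2% of all genes. That count was 1 with the replicate block (2757 of all 24479 genes) and 0 with the methods' test (2473 of all). It was 2 without Lyve-1-KO replicate 2 (2811 of all) and 5 without Ctrl replicate 1 (2820 of all). Their median log2 fold change was -0.04, with 6 above 0 and 13 below. Cxcr2, the receptor of Cxcl1 on neutrophils, had 7.25, 6.34 and 8.46 on the arrays labelled Lyve-1-KO, against 6.29, 6.42 and 6.40 on the Ctrl arrays (log2 fold change 0.98, SE 0.47, adjusted p = 0.493 by limma). This resembled Ackr1 in size but not in its pattern, as Lyve-1-KO replicate 2 was among the Ctrl values. Ccr1, a receptor of myeloid cells, had 5.62, 4.35 and 6.94 on the arrays labelled Lyve-1-KO, against 4.10, 4.41 and 5.23 on the Ctrl arrays (log2 fold change 1.06, SE 0.63, adjusted p = 0.575 by limma). The chemerin receptors Cmklr1 (log2 fold change -0.26, SE 0.17) and Gpr1 (-0.24, SE 0.12) were both below 0.

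Arrestins bind the phosphorylated tails of these receptors and link them to uptake, and receptor kinases place the phosphates. Of 7 such genes 6 were measured, with a median log2 fold change of -0.11. At an unadjusted p under 0.05 there were 0 in limma, beside 11.2% of all genes, and 2 by the methods' test, beside 2473 of all 24479 genes. Arrb1 had 11.44, 11.44 and 11.49 on the arrays labelled Lyve-1-KO, against 11.56, 11.55 and 11.59 on the Ctrl arrays (log2 fold change -0.11, SE 0.06, adjusted p = 0.515 by limma). The kinases Grk5 (log2 fold change -0.21, SE 0.15) and Grk6 (-0.13, SE 0.08) were also below 0, and Grk4 was above it (0.08, SE 0.06) at a level below the array median.

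**Figure D4:**
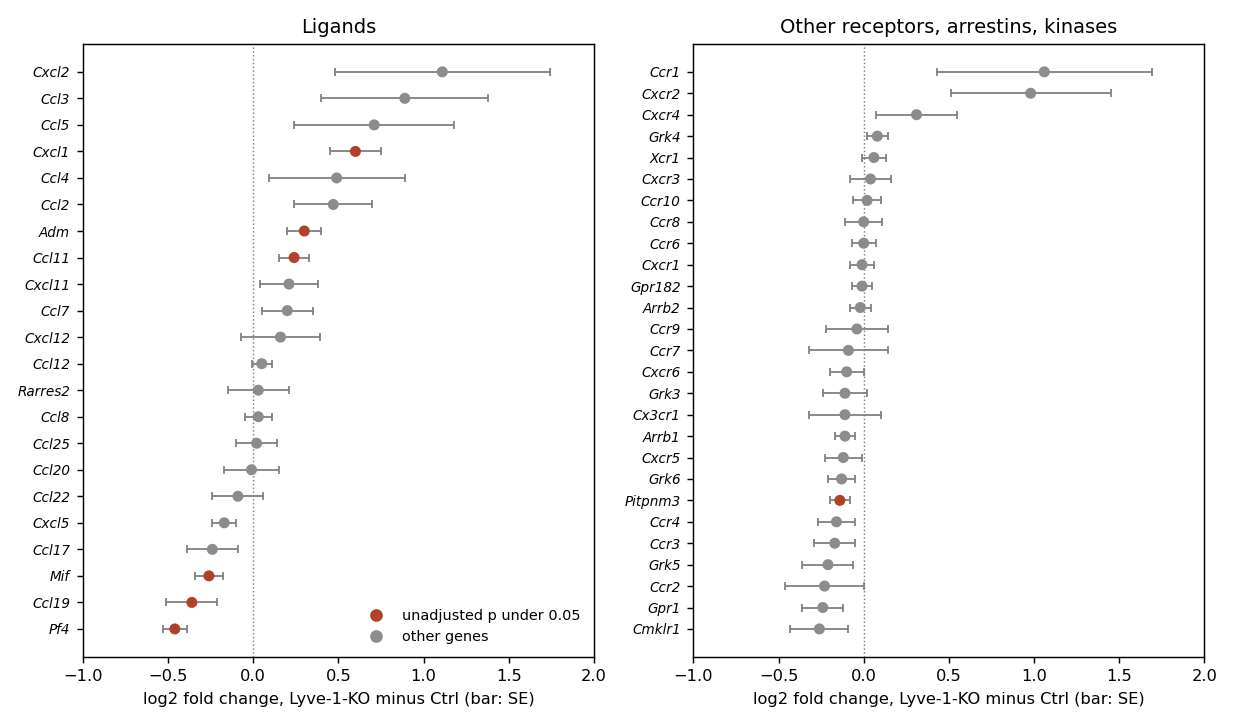
Log2 fold changes (x axis, Lyve-1-KO minus Ctrl, bars the standard error) of the 22 measured ligands of the 5 receptors (left) and of other receptors, arrestins and receptor kinases (right), sorted by size. Red points are at an unadjusted p under 0.05, among them Cxcl1 at 0.60 and Pf4 at -0.46; the genes furthest to the right have the widest error bars.

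Since Ackr1 is known from venules and red cells, and Ccrl2 from neutrophils and macrophages, the markers of these cells were set beside them. The 14 venous and venular markers averaged 9.56 ± 0.08 on the arrays labelled Lyve-1-KO and 9.72 ± 0.15 on the Ctrl arrays (SD, n = 3 each; p = 0.2, exact two-sided permutation test), with summed levels of 133.1 to 135.2 and 134.2 to 138.2. They thus leaned in the direction opposite to Ackr1, with 4 above 0 and 10 below. The size depended on single Ctrl arrays: the difference of -0.16 was -0.08 without Ctrl replicate 1 and -0.23 without Ctrl replicate 2. Above 0 was Icam1, an adhesion molecule of activated endothelium, with a log2 fold change of 0.38 (SE 0.11, adjusted p = 0.312 by limma). So were Sele (0.34, SE 0.31), Vcam1 (0.24, SE 0.11) and Madcam1 (0.17, SE 0.11). Vwf, of large vessel endothelium, was the lowest of the list with -0.97 (SE 0.40, adjusted p = 0.437 by limma). Of 14 erythroid markers 9 were measured and averaged 4.06 ± 0.04 on the arrays labelled Lyve-1-KO and 4.16 ± 0.07 on the Ctrl arrays (SD, n = 3 each; p = 0.2, exact two-sided permutation test), below the array median in both groups, with summed levels of 36.1 to 36.8 and 36.7 to 37.9. Of the erythroid markers, Alas2 had the widest difference, with a log2 fold change of -0.8 (SE 0.37) and overlapping groups. Its levels on Ctrl replicates 2 and 3, 5.71 and 5.15, lay above the array median. With the filter on dim genes, which leaves fewer erythroid markers, the difference in their mean was -0.35 in place of -0.1. The 5 lymphatic markers averaged 6.48 ± 0.22 on the arrays labelled Lyve-1-KO and 6.93 ± 0.08 on the Ctrl arrays (p = 0.1, exact two-sided permutation test). Among them Mmrn1 had the widest difference (log2 fold change -1.68, SE 0.17, adjusted p = 0.0901 by limma). The rest of the list did not share its size, with Sema3d at -0.64 (SE 0.18), Prox1 at -0.11 (SE 0.13), Pdpn at -0.01 (SE 0.13) and Reln at 0.15 (SE 0.24). Over the 6 arrays Ackr1 correlated with the venous and venular mean at r = -0.79, the erythroid mean at -0.56 and the hepatocyte mean at 0.20. After the group means were taken off, these were -0.90, the lowest of the 13 marker lists, 0.85, the highest, and 0.82. These correlations are descriptions, and the part of such cells in the Ackr1 values was not tested.

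Neutrophil markers moved in part with Ccrl2. The 10 markers averaged 5.31, 4.83 and 6.05 on the arrays labelled Lyve-1-KO, against 4.74, 4.83 and 5.06 on the Ctrl arrays (p = 0.2, exact two-sided permutation test), with summed levels of 48.3 to 60.5 and 47.4 to 50.6 and with 9 of 10 genes above 0. Lyve-1-KO replicate 3 was highest for both the markers and Ccrl2, and without it the difference in the neutrophil mean was 0.20 in place of 0.52. Over the 6 arrays Ccrl2 correlated with the neutrophil mean at r = 0.83, and at 0.87 after the group means were taken off, in both cases the highest of the 13 marker lists. Over the 6 arrays its r was larger in size, but negative, with lymphatic (-0.90) and LSEC markers (-0.84), and was -0.82 with erythroid markers. These were -0.52, -0.36 and -0.56 after the group means were taken off. On replicate 2 the neutrophil means were 4.83 in both groups, and Ccrl2 was 9.86 on the array labelled Lyve-1-KO and 9.53 on the Ctrl array. The part of neutrophil RNA in the Ccrl2 difference was not tested. Within the list, Ly6g, Elane, Mpo, Ngp, Camp and Ltf had group means of 3.56 to 4.65, below the array median. The group means of S100a8, S100a9, Retnlg and Cxcr2 lay above it. Log2 fold changes of S100a8, S100a9 and Retnlg were 1.23 (SE 0.65), 1.32 (SE 0.76) and 1.36 (SE 0.66). The list holds Cxcr2, which is also a conventional chemokine receptor above. The 12 measured macrophage markers averaged 8.66, 9.41 and 9.76 on the arrays labelled Lyve-1-KO, against 7.52, 9.64 and 8.93 on the Ctrl arrays (p = 0.6, exact two-sided permutation test), with summed levels of 103.9 to 117.1 and 90.2 to 115.7 and with 12 of 12 above 0. The macrophage difference of 0.58 depended on single Ctrl arrays, as it was -0.01 without Ctrl replicate 1 and 1.05 without Ctrl replicate 2. Ccrl2 correlated with the macrophage mean at r = 0.44, and at 0.25 after the group means were taken off.

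**Figure D5:**
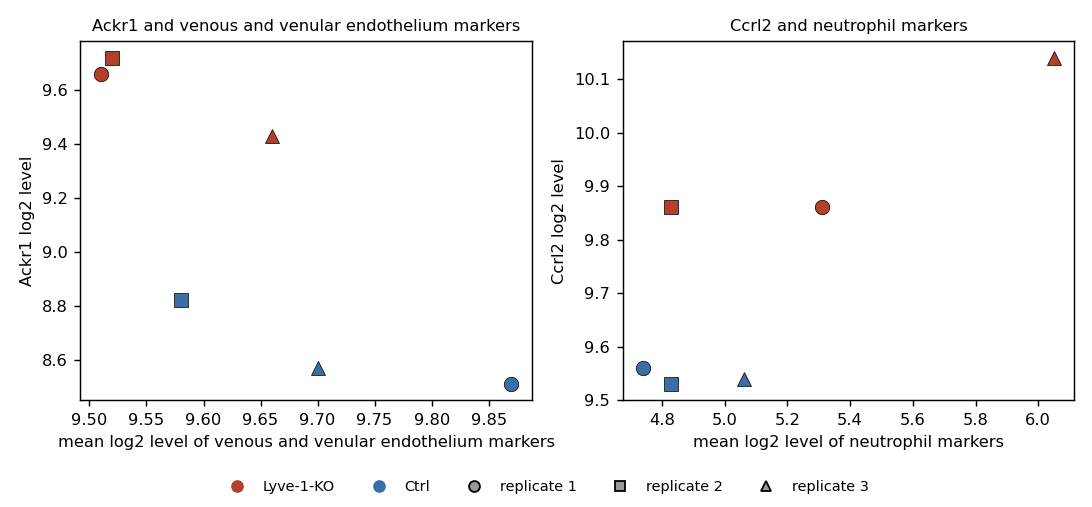
Log2 level of Ackr1 against the mean log2 level of 14 venous and venular markers (left) and of Ccrl2 against that of 10 neutrophil markers (right), 1 point per array (red, labelled Lyve-1-KO; blue, Ctrl; shapes, replicate numbers). Ackr1 is highest where the venous and venular mean is low, and Ccrl2 is highest, at 10.14, on the array with the highest neutrophil mean, 6.05.

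For the other marker lists the exact two-sided permutation test gave p of 0.2 or more. Mean levels were 5.58 on the arrays labelled Lyve-1-KO and 6.14 on the Ctrl arrays for B cells (p = 0.2, exact two-sided permutation test), 5.53 and 5.40 for T and NK cells (p = 0.5, same exact test), 5.88 and 5.84 for dendritic cells (p = 0.9, same exact test), 8.26 and 8.27 for hepatocytes (p = 1, same exact test), 7.90 and 7.87 for stellate cells and fibroblasts (p = 0.9, same exact test) and 6.38 and 6.62 for cholangiocytes (p = 0.3, same exact test). The LSEC list reached the smallest possible p of 0.1 in this exact test with a difference of -0.03, with 7 of 15 above 0 and 8 below. At an unadjusted p under 0.05 in limma there were 2, both lower, beside 11.2% of all genes. These were Cd209b (log2 fold change -0.35, SE 0.09, adjusted p = 0.269 by limma) and Wnt2 (-0.20, SE 0.07, adjusted p = 0.367 by limma). The groups did not overlap for 3 of the 15, beside 17.4% of all genes. What part the differences in marker levels have in the values of the 5 receptor genes was not tested.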

How the data were processed

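RNA of LSECs was measured on Affymetrix MoGene-2_0-st arrays. The authors combined probes into Entrez genes through a custom definition file of the chip and normalized the intensities by quantiles, and the deposited values are on the log2 scale, with 1 value for each gene on each of 6 arrays. The submitters' processing notes name RMA, and the genome build is not given in the sources used here. Because quantile normalization gives every array the same distribution, a difference shared by most genes could not be seen. Symbols came from the platform annotation for 23281 genes, of which 125 symbols are not in the reference annotation, and the other 1198 are unnamed here. Groups and replicate numbers came from the sample titles. Arrays have no sequencing depth.

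Groups were compared with limma 3.58.1 in R 4.3.3 (lmFit, eBayes, Benjamini-Hochberg over 24479 genes, threshold 0.05) without a filter, and marker list means with an exact two-sided permutation test (Python 3.11.15), whose smallest p is 0.1. The fit was tested on simulated data. No set test was run. Replicate numbers are shared between the groups, and deviations from the group means correlated at 0.206, 0.134 and 0.124 for equal numbers, against -0.218 to 0.0432 for unequal ones. Deviations from a group mean cancel out over its arrays, so the values for equal and unequal numbers are not independent of each other. As each equal pair exceeded 0.1, the numbers were taken to pair the pools in an alternative fit. This pairing is an assumption, as the labels do not say what a number stands for. The alternative fit had the replicate number as a block. The main limma fit, with its SEs and adjusted p-values, and the exact permutation tests did not use the pairing. The smallest p of 0.1 holds only without it. Other alternatives were centring each array on its median, a second quantile normalization, a filter at the 40th percentile of the mean level, a trended robust variance, array weights, the methods' test (a one-way analysis per gene) and each array left out. Receptors, lists and tests were chosen with earlier results of these data known. All 5 receptor genes are named; other genes are the up to 4 per list with the smallest p or the highest level, the nearest neighbour of Ackr1 on each side and its neighbours at an unadjusted p under 0.05, and the 5 genes most like Ackr1 by each measure. Genes that overlap a receptor gene and further neutrophil markers were added. Promoters are RefSeq sequences of GRCm38.p6, with all 5 genes matched by symbol.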

Additional observations from a re-analysis of the deposited data

How the results depend on the processing

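With single arrays left out or arrays weighted, the log2 fold changes of all 5 receptor genes moved by less than 1 SD between replicates. With 3 arrays per group, leaving 1 out cannot move them by more, so this is no sign of stability. They ranged over 0.91 to 1.06 for Ackr1, -0.18 to -0.09 for Ackr2, -0.54 to -0.27 for Ackr3, -0.08 to 0.04 for Ackr4 and 0.31 to 0.45 for Ccrl2. Of these only Ackr4 had values on both sides of 0, above it without Ctrl replicate 1. The other alternatives left these values as they were, which follows from equal groups and identical array distributions and is no sign of stability. The number of genes called at an adjusted p under 0.05 was 1 in limma, 0 with the replicate block, 49 with a trended robust variance, 0 with the methods' test and 0 to 2 with single arrays left out (2 without Ctrl replicate 1); the cause was not tested. The count at an unadjusted p under 0.05 was 1926 to 2984. The median over the 20 neighbours of Ackr1 was 0.03 with all arrays and -0.00 to 0.08 with single arrays left out, and 6 to 9 of them were at an unadjusted p under 0.05, 9 with the replicate block, a count that was added after seeing the data. For the Ackr1 ligands, the filter on dim genes, which leaves fewer of them, gave a median log2 fold change of 0.53 in place of 0.24, and for the Ackr2 ligands 0.49 in place of 0.22. The SD between replicates was 0.08 to 0.23 for the 5 receptor genes, which limits what 3 arrays per group can show for Ackr2 and Ackr4.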
